A study of Arabidopsis thaliana with 4 samples.

Results

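BARD1 (AT1G04020), BRCA1 (AT4G21070), HPY2 (AT3G15150), SIZ1 (AT5G60410) and MEE22 (AT2G34780) are 5 Arabidopsis genes with roles in genome maintenance, SUMO conjugation and the shoot meristem. The methylated cytosines of these genes were described in shoot apices with and without a nitric oxide donor. A gene region was the annotated TAIR10 gene plus 1 kb upstream of its start, and the 5 genes were chosen by name from 27444 nuclear protein-coding genes. Their regions held 657 of the 6303651 nuclear cytosines that any library listed as methylated. For BARD1, HPY2 and MEE22 the study reported a substantial decrease of DNA methylation after treatment with the donor. It showed total methylation at these loci, whereas most levels below are of CG sites alone. The assay was EM-seq (enzymatic methyl-seq). In it unmodified cytosines are converted by enzymes and read as thymine, while methylated cytosines are still read as cytosine. All apices were of the Col-0 genotype by the labels, and the study's methods name the ap1 cal double mutant, whose apices keep producing meristems in place of flowers. The 2 mock libraries, mock 1 and mock 2, received 0.025% Silwet, a wetting agent. The 2 SNP libraries, SNP 1 and SNP 2, received 0.025% Silwet with 1 mM sodium nitroprusside (SNP), which releases nitric oxide, and both treatments lasted 24 h. The study's methods call the libraries of a treatment biological replicates but do not say how the plants were divided. The p-values of the permutation and edgeR tests below therefore measure the spread between these libraries only. Those of Fisher's exact test come from reads pooled by treatment and leave that spread out. Each level is also an average over all cells of the apices, and a change in cell composition cannot be told apart from a change within cells.

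BARD1 and BRCA1 are RING-finger proteins that bind each other and act in DNA repair. In Arabidopsis BARD1 is also known as a repressor of WUSCHEL, the homeobox gene that keeps stem cells in the shoot meristem. SIZ1 and HPY2 are SUMO E3 ligases, which attach the small protein SUMO to other proteins. SIZ1 has nitrate reductases among its targets, and HPY2 (MMS21) is a subunit of the SMC5/6 complex and delays the switch from division to endoreduplication in meristems. MEE22 (EMB1611) is required in embryo development and for keeping the shoot apical meristem. In plant genes, methylation of transcribed exons is mostly in the CG context and is copied after replication by the methyltransferase MET1. A CG on one strand always faces a CG on the other, and such a pair is called a dyad here. CHG and CHH methylation (H stands for A, C or T) is typical of transposons.

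The files listed a cytosine only where a library had at least 2 methylated reads. A cytosine missing from a library was therefore either not covered or not called, and a site that lost all methylation would be missing and not listed at 0. The libraries listed between 3857352 and 4134559 nuclear cytosines with 42221751 to 50875710 reads over them, and the median depth was 8 to 10 reads. The SNP 2 library was the shallowest. Within the 5 regions, the depth of CG sites listed in all 4 libraries ran from 2 to 27 reads, and this number limits the precision of any single site.

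Shared methylation in these genes was entirely CG methylation and lay mostly inside coding exons. Of the 1192 CG cytosines in the 5 regions, counted on both strands, 317 were listed in some library and 251 in all 4, which is 21.1% of the cytosines. CHG methylation was listed at 81 of 1971 cytosines and CHH methylation at 259 of 7602, and each of these entries came from 1 library alone. A share of 0 in 81 CHG entries allows up to 3.70% to be shared by libraries, and 0 in 259 CHH entries allows up to 1.16%, counting error only. Exactly 2 methylated reads, the minimum for listing, supported 77.8% of the CHG and 84.6% of the CHH entries. Regions of this kind were common, because 35.9% of the 13343 gene regions tested in CG likewise had no CHG or CHH site in more than 1 library. Over all protein-coding regions, single-library entries made up 19.4% of the listed CG, 52.9% of the CHG and 75.5% of the CHH sites, against 15.5%, 100% and 100% in the 5 regions.

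**Figure D1:**
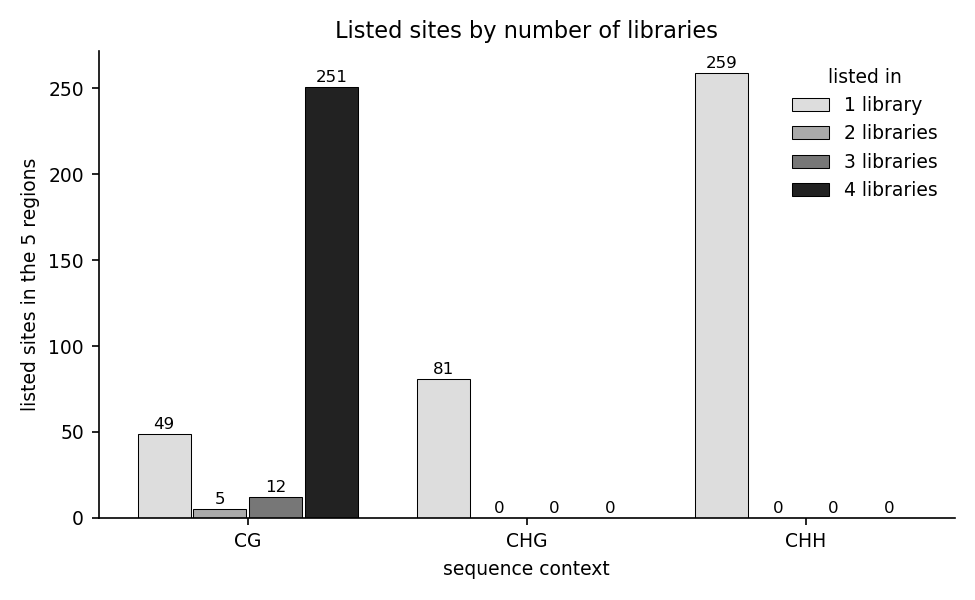
Number of listed cytosines in the 5 gene regions (vertical axis) by sequence context, split by the number of libraries that listed them (grey shades). Of the CG sites 251 were listed in all 4 libraries, whereas all 81 CHG and all 259 CHH sites came from 1 library.

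The lists of CG sites did not split by treatment. A site with 2 methylated reads stays listed and an absent site may be uncovered, so these lists cannot show a partial loss or gain. No CG site of the 5 regions was on both mock lists while absent from both SNP lists, and the reverse did not occur at any site either. Of the 12 CG sites listed in 3 libraries, 6 were missing from SNP 1, 3 from mock 1, 2 from mock 2 and 1 from SNP 2.

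Coding exons held most of the shared CG sites. In them 195 of 532 CG cytosines (36.7%) were listed in all 4 libraries, compared with 23 of 168 (13.7%) in introns, 31 of 336 (9.23%) upstream and 2 of 156 (1.28%) in UTR exons. Over all protein-coding genes the shares were 19.6% in coding exons, 20.4% in introns, 13.0% upstream and 3.63% in UTR exons. The pooled shares of the 5 genes were thus above those of all genes in coding exons and below them in the other parts, but the genes differed. SIZ1 had the highest share of coding-exon cytosines in all 4 libraries (64.6%, 82 of 127), followed by MEE22 (43.4%, 66 of 152). BARD1 (19.0%, 20 of 105), HPY2 (19.2%, 10 of 52) and BRCA1 (17.7%, 17 of 96) were close to each other and to the share over all genes.

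BARD1 lies on chromosome 1 at 1036493 to 1040262 on the plus strand, with 13 exons in its first transcript. Its 20 shared CG sites were in exons 7, 8 and 9, with 6, 4 and 10 sites, between 1843 and 2389 bases after the start. None of the 116 CG cytosines upstream of BARD1 was listed in all 4 libraries, although 772 bases of this window lie in the neighbouring gene PSAT1. BRCA1 lies on chromosome 4 at 11247991 to 11252757 on the plus strand, with 14 exons. Its 36 shared sites fell into an upstream group of 19 and 17 sites in exons 5, 7, 11 and 14. The upstream group stood at positions -936 to -548 from the start, inside the neighbouring gene AT4G21065, which ends at 11247807. The promoter-proximal part of BRCA1 therefore held no shared CG site, and the upstream values below are those of another gene's body.

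HPY2 lies on chromosome 3 at 5101844 to 5104159 on the minus strand, with 7 exons. All of its 10 shared CG sites were in exon 3, in 5 dyads between 881 and 923 bases after the start. None of its 78 upstream CG cytosines was shared, and 793 bases of that window lie in AT3G15160. SIZ1 lies on chromosome 5 at 24294704 to 24301157 on the plus strand, with 17 exons. Its 105 shared sites began 1122 bases after the start and ended at 5832 bases, with 31 in exon 16, 12 in exon 11, 21 in introns and 2 in an intron of the first transcript that another transcript keeps in an untranslated exon. None of the 45 CG cytosines upstream of SIZ1 was shared. MEE22 lies on chromosome 2 at 14668440 to 14673904 on the plus strand, with 8 exons. Its 80 shared sites were mostly in exon 3 (26), exon 6 (24), exon 4 (10) and exon 8 (6), with 2 in an intron. The other 12 stood at positions -903 to -825 from the start, inside FAH1, a neighbouring gene that ends at 14668250. BARD1, HPY2 and SIZ1 thus had shared CG methylation in the gene body alone, and the upstream sites of BRCA1 and MEE22 both lay in the body of the gene next to them.

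**Figure D2:**
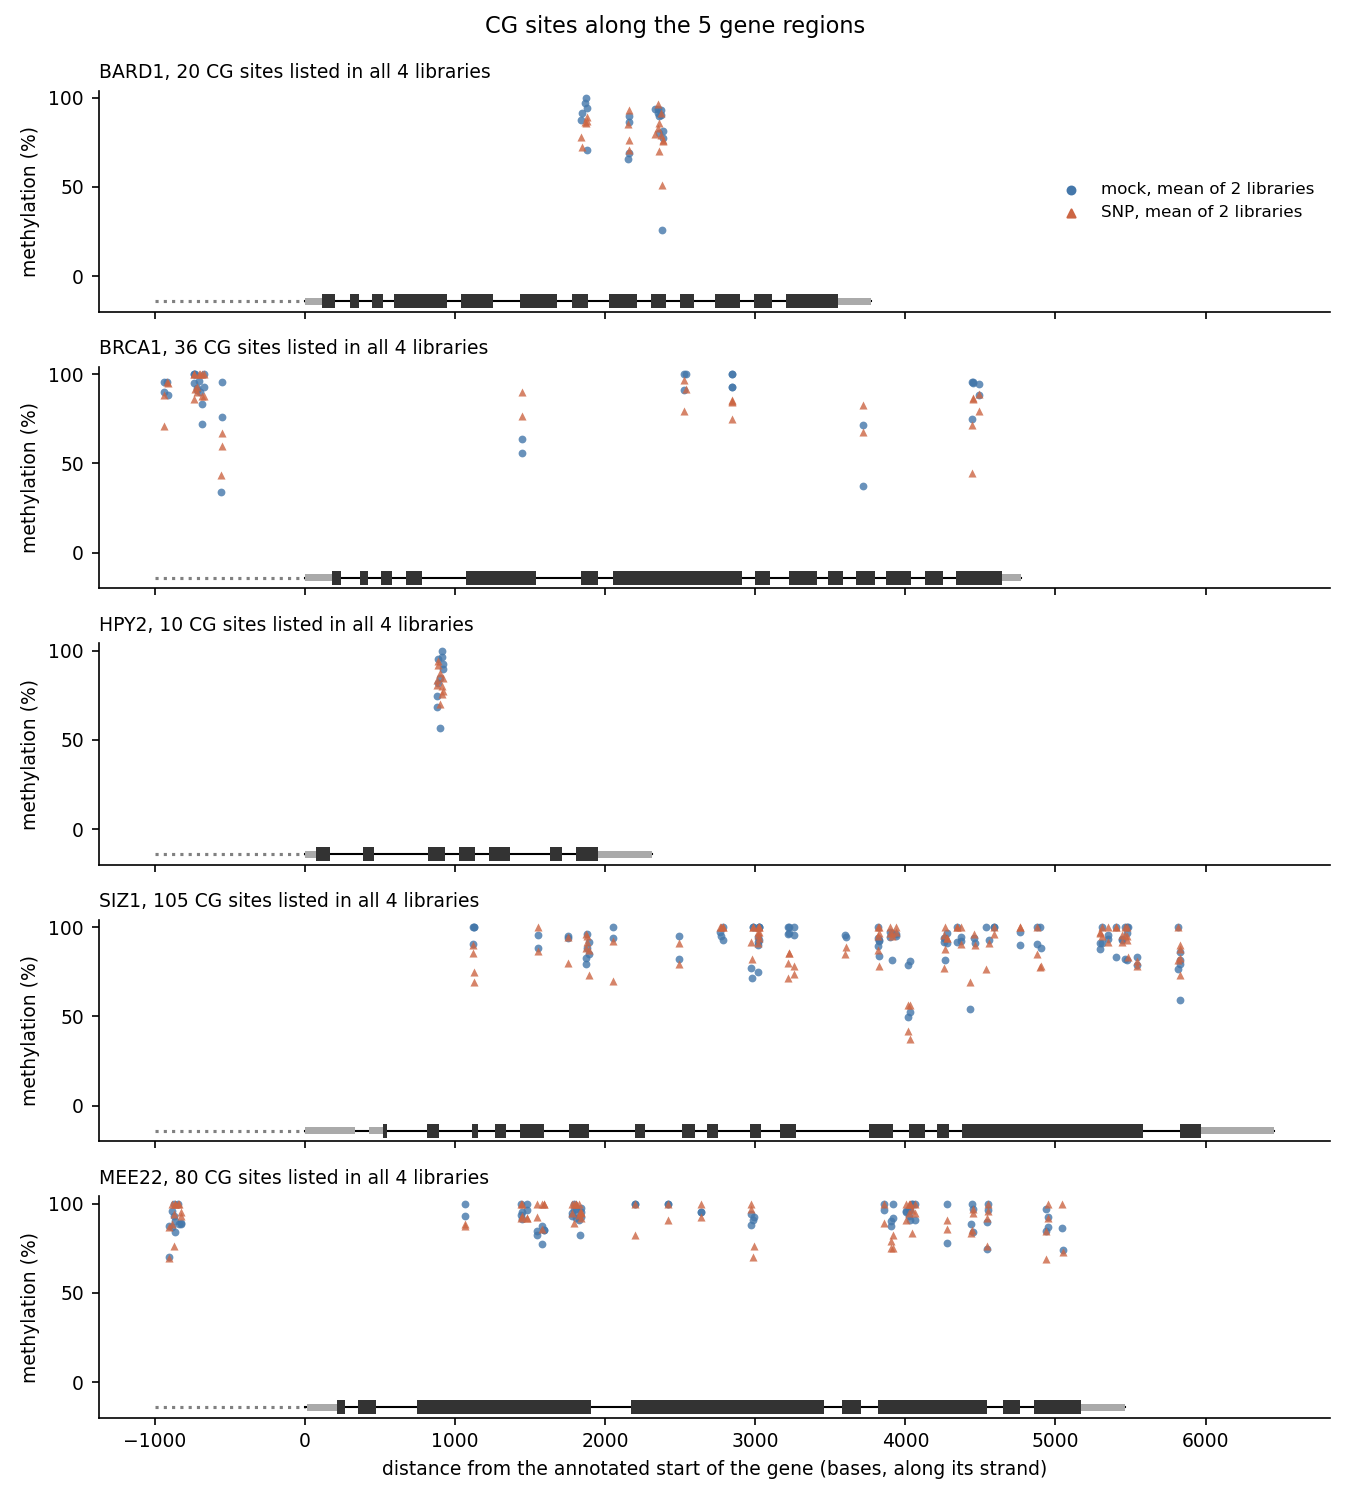
CG sites listed in all 4 libraries along the 5 gene regions, with the methylation level in percent (vertical axis) against the distance from the annotated start in bases (horizontal axis). Circles are the mean of the mock libraries and triangles the mean of the SNP libraries, dark boxes are coding exons, light boxes are exons outside the coding sequence and the dotted line is the upstream window. The 10 sites of HPY2 form 1 cluster, and the upstream sites of BRCA1 and MEE22 stand apart from their gene bodies.

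The following stretches carry the clusters and the differences described below. They are read from the TAIR10.1 reference along the strand of the gene, and capitals mark the CG dyads that were listed on both strands in all 4 libraries. Windows were chosen after the site values were seen. The BARD1 stretches are from exon 7, with the first 2 bases of the next intron (chr1:1038330-1038378, plus strand), and from exon 9 (chr1:1038839-1038890, plus strand), which together hold 7 of its 9 such dyads. The HPY2 stretch (chr3:5103228-5103286, minus strand) holds its whole cluster. The BRCA1 stretches are a part of the upstream group in AT4G21065 (chr4:11247245-11247329, plus strand) and of exon 14 (chr4:11252428-11252489, plus strand). The SIZ1 stretches are parts of exon 4 (chr5:24295818-24295839), of exon 12 (chr5:24297916-24297970) and of the boundary where an intron meets exon 14 (chr5:24298711-24298742), all on the plus strand. The MEE22 stretch is a dense part of exon 3 (chr2:14670210-14670290, plus strand).
BARD1 exon 7: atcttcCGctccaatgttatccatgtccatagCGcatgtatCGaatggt
BARD1 exon 9: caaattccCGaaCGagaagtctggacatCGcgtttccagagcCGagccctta
HPY2 exon 3: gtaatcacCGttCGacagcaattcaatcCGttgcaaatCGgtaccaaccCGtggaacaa
BRCA1 upstream: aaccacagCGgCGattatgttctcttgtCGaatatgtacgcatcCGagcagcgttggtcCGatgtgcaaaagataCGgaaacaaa
BRCA1 exon 14: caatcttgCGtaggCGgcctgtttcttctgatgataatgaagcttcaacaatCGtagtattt
SIZ1 exon 4: gaacttgtCGacCGgatcttga
SIZ1 exon 12: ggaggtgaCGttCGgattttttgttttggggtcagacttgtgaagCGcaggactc
SIZ1 intron to exon 14: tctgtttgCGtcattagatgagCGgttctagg
MEE22 exon 3: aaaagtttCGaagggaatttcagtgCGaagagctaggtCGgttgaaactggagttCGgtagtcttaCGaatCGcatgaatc

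Over the reads of each stretch, the libraries differed most at SIZ1. The intron to exon 14 stretch was methylated at 70.4% and 62.0% in the mock libraries and at 53.1% and 37.5% in the SNP libraries, from 48 to 54 reads per library. In the same order (mock 1, mock 2, SNP 1, SNP 2), the exon 4 stretch stood at 94.7%, 100%, 75.9% and 84.0%, and the exon 12 stretch at 100%, 96.4%, 77.1% and 85.0%. The SNP pair lay under the mock pair in each of these 3 picked SIZ1 stretches. Over all 51 SIZ1 dyads listed on both strands in all 4 libraries, it lay under in 10 and above in 10. In the genome 17.3% of such dyads were lower and 12.5% higher. The BARD1 exon 7 stretch was also lower in both SNP libraries (90.4% and 89.0% in mock, 78.3% and 74.1% in SNP), as was BRCA1 exon 14 (95.7% and 85.1% in mock, 68.8% and 80.4% in SNP). In the other stretches the treatments overlapped. HPY2 exon 3 stood at 82.4% and 86.8% in mock and at 87.1% and 78.5% in SNP, and BARD1 exon 9 at 85.8% and 77.3% in mock and at 84.7% and 71.3% in SNP. MEE22 exon 3 was at 97.7% and 89.9% in mock and at 95.8% and 95.6% in SNP, and the stretch upstream of BRCA1 at 88.1% and 95.4% against 92.3% and 95.4%. As these stretches were picked with their values in view, no test was run on them.

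Whether nitric oxide changed the CG level of each gene was asked over the whole region. The level was the number of methylated reads over all reads, summed over CG sites that each library read at least 5 times. The SNP pair lay under the mock pair in BRCA1 and SIZ1, the treatments overlapped in BARD1, HPY2 and MEE22, and no gene passed the test across all gene regions. The smallest two-sided p that an exact permutation of 4 libraries can give is 0.333, so a single gene cannot reach the threshold of 0.05 in that test.

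Over 26 sites, the BRCA1 region had a CG level of 86.9% and 85.0% in mock 1 and 2 and of 81.1% and 78.9% in SNP 1 and 2. The SNP libraries were lower by 5.93 points on average, against a pooled SD of 1.48 points between libraries of a treatment (n = 2 and 2, exact permutation p = 0.333). The 14 sites of the BRCA1 body stood at 82.5% and 85.1% in mock and at 78.8% and 77.8% in SNP, a difference of -5.54 points. The 12 upstream sites, in AT4G21065, stood at 93.1% and 84.8% in mock and at 84.8% and 80.2% in SNP, where mock 2 and SNP 1 nearly touched. The lower level of BRCA1 depended on which sites were counted. With sites of at least 10 reads, of which 7 remained, the difference was -0.0396 points, and with the sites of each library whatever the others it was 0.22 points.

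BARD1, the partner of BRCA1, had 13 such sites with levels of 82.0% and 87.4% in mock 1 and 2 and of 86.0% and 71.2% in SNP 1 and 2. The mean difference of -6.07 points was smaller than the pooled SD of 7.84 points, and SNP 1 lay between the mock libraries (n = 2 and 2, exact permutation p = 0.667). Over these 13 sites the low mean came from SNP 2, and without SNP 2 the difference was 1.28 points. SNP 2 had 160 reads over them, against 183 in mock 1, 119 in mock 2 and 171 in SNP 1. With at least 10 reads, 5 sites in BARD1 stood at 87.6% and 91.5% in mock and at 83.3% and 72.0% in SNP. With the sites of each library whatever the others, BARD1 stood at 74.1% and 79.1% in mock and at 70.7% and 71.8% in SNP, so under both of these settings the SNP libraries were lower without overlap.

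SIZ1 had 94 sites, the most of the 5 genes, with levels of 90.5%, 90.2%, 89.3% and 88.6% in mock 1, mock 2, SNP 1 and SNP 2. The SNP libraries were lower by only 1.40 points on average, which exceeded the pooled SD of 0.34 points (n = 2 and 2, exact permutation p = 0.333). Its 21 intron sites stood at 92.9% and 91.1% in mock and at 89.8% and 87.8% in SNP, a difference of -3.19 points, and its 71 coding-exon sites stood at 89.5%, 90.4%, 89.2% and 88.8%, a difference of -0.97 points. HPY2, the other SUMO ligase, stood at 82.4%, 86.8%, 87.1% and 78.5% over its 10 sites. The highest and the lowest library of HPY2 were both SNP libraries, and the difference of -1.84 points was below the pooled SD of 4.82 points. MEE22 had levels of 93.1%, 90.2%, 91.4% and 93.9% over 66 sites and a difference of 0.96 points (pooled SD 1.91 points). Its 55 body sites differed by 0.50 points and its 11 sites inside FAH1 by 3.63 points, and the treatments overlapped in both. With at least 10 reads, 6 sites in MEE22 stood at 87.7% and 92.9% in mock and at 97.3% and 93.8% in SNP. Under that setting the SNP libraries were higher without overlap.

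**Figure D3:**
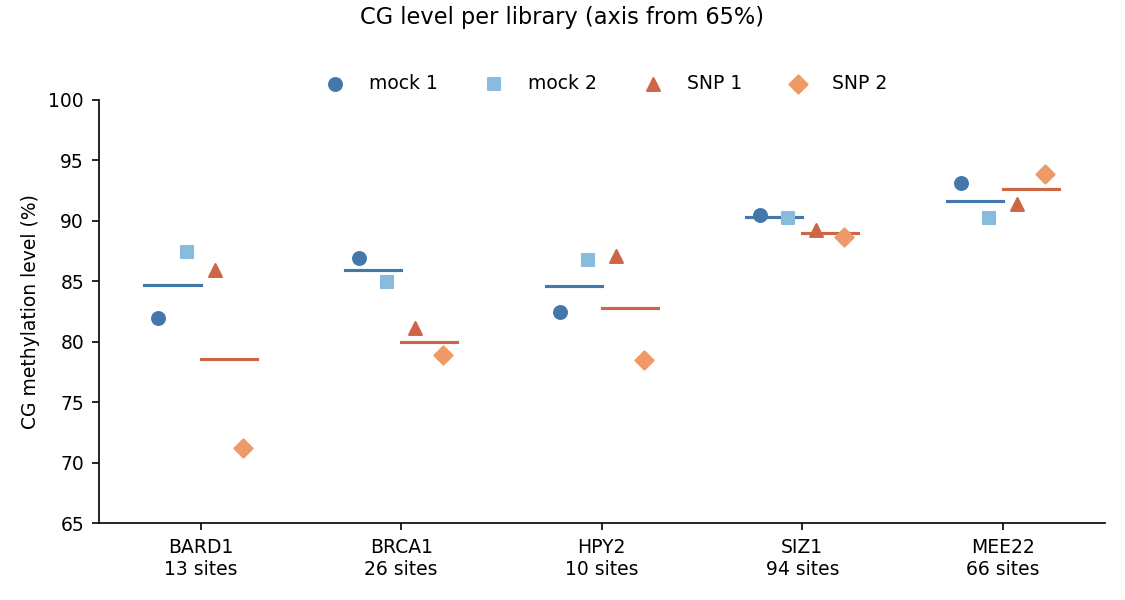
CG methylation level in percent (vertical axis, starting at 65%) of each gene region in each library, over CG sites that each library read at least 5 times; horizontal bars are the means of 2 libraries. The SNP libraries of BRCA1 (81.1% and 78.9%) lie below its mock libraries (86.9% and 85.0%), whereas SNP 2 alone is low in BARD1 (71.2%).

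These differences lay well inside the range of all gene regions. Over the 13343 regions with at least 10 such CG sites the median level was 86.5% and the median difference -2.43 points, so the SNP libraries were lower in general. The differences of BARD1 and BRCA1 stood at the 19.9 and 20.7 percentiles of all regions, those of HPY2 and SIZ1 at 56.8 and 62.2, and that of MEE22 at 85.4. The SNP pair lay under the mock pair in 44.6% of the regions and above it in 6.37%, so the 2 of 5 genes found lower and the 0 of 5 found higher are close to that background. The quasi-likelihood test of edgeR, with Benjamini-Hochberg adjustment over all regions, called 433 regions (3.25%), of which 429 were lower in SNP, and 2707 regions (20.3%) had an unadjusted p under 0.05. None of the 5 genes was among them. The log2 odds ratio of methylation, SNP over mock, was -0.60 in BRCA1 (edgeR adjusted p = 0.313), -0.52 in BARD1 (adjusted p = 0.553), -0.22 in SIZ1 (adjusted p = 0.591), -0.11 in HPY2 (adjusted p = 0.931) and 0.19 in MEE22 (adjusted p = 0.741). The median over all regions was -0.32 on this scale. Before adjustment the smallest of the 5 edgeR p-values was that of BRCA1, at 0.0822.

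**Figure D4:**
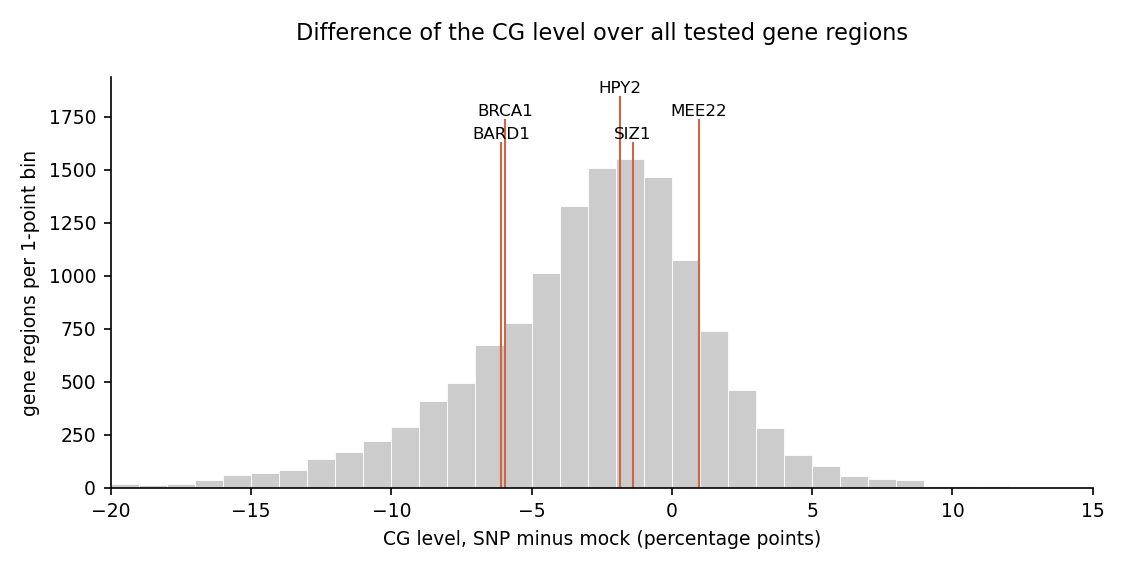
Number of gene regions (vertical axis) by the difference of the CG level, SNP minus mock in percentage points (horizontal axis), in bins of 1 point over 13343 regions, with lines at the 5 genes. The axis leaves out 25 regions below -20 points. BARD1 (-6.07) and BRCA1 (-5.93) lie left of the median of -2.43 points, and MEE22 (0.96) lies right of it.

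Neither of the other edgeR fits called any of the 5 genes. With CG, CHG and CHH sites summed, edgeR called 355 of 14097 regions (2.52%) and none of the 5 genes, whose adjusted p ran from 0.346 in BRCA1 to 0.939 in HPY2. In these genes no CHG or CHH site had 5 reads in every library. For them this fit counted the same CG sites again, so it could not test their CHG or CHH methylation. With gene bodies alone edgeR called 625 of 10924 (5.72%), again none of the 5, with adjusted p from 0.495 in BRCA1 to 0.926 in HPY2. The body fit also repeated the 13 sites of BARD1, the 10 of HPY2 and the 94 of SIZ1, and only BRCA1 and MEE22 lost sites in it. Fisher's exact test on the reads pooled by treatment, which ignores the spread between libraries, gave BRCA1 an adjusted p of 0.0383 and called none of the other 4 genes. That test called 4013 of all regions.

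The number of listed sites of all contexts, which also moves with depth, was apart between treatments in BRCA1 and overlapped in the other genes. BRCA1 had 64 and 62 listed sites in the mock libraries and 50 and 47 in the SNP libraries, a difference of -14.5 sites (pooled SD 1.80, exact permutation p = 0.333). Its CG sites overlapped between treatments (42 and 45 against 38 and 43), and most of the difference was in CHG (8 and 7 against 4 and 2) and CHH entries (14 and 10 against 8 and 2), each of which came from 1 library. Over 27318 gene regions with a listed site, both SNP libraries listed fewer sites than both mock libraries in 19.6% and more in 9.91%, so 1 of 5 is close to that background. BARD1 had 38 and 48 against 47 and 28, SIZ1 134 and 129 against 152 and 120, and MEE22 125 and 101 against 108 and 113. HPY2 had 11 and 31 against 13 and 18, and of the 31 sites in mock 2, 15 were CHH sites listed in that library alone. The part of depth in the BRCA1 count was not tested.

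At single sites, no CG cytosine of the 5 regions passed the test. Of the 209 CG sites that each library read at least 5 times, Fisher's exact test on pooled reads called 0 after adjustment over 1050094 CG sites of the genome, where it called 143 (0.0136%). Without adjustment 22 of the 209 had p under 0.05 in Fisher's exact test, a larger share than the 4.14% of all sites. Of the 22, 10 were in SIZ1, 6 in MEE22, 5 in BRCA1 and 1 in HPY2. The SNP pair lay under the mock pair at 43 of the 209 sites (20.6%) and above it at 26 (12.4%), compared with 13.1% and 8.97% of all sites. The sites of a dyad and of neighbouring dyads are read in part from the same DNA fragments, so these counts are not independent. By gene, the lower sites numbered 11 of 26 in BRCA1, 4 of 13 in BARD1, 3 of 10 in HPY2, 17 of 94 in SIZ1 and 8 of 66 in MEE22. The higher sites numbered 1 in BRCA1, 0 in BARD1 and HPY2, 12 in SIZ1 and 13 in MEE22. MEE22 was thus the only one of the 5 with more higher than lower sites.

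The site with the smallest p lay at the boundary stretch of SIZ1 shown above. At chr5:24298733 on the plus strand, in exon 14, methylated reads were 13 of 14 and 9 of 13 in mock and 7 of 15 and 5 of 18 in SNP. The mean difference was -43.8 points (Fisher's exact test p = 0.000613, adjusted p = 0.505). The facing cytosine on the minus strand did not follow, with levels of 46.2%, 58.3%, 70.0% and 42.9%, so that the treatments were apart on 1 strand of the dyad. The plus-strand cytosine at 24298719, in the intron before exon 14, was also lower, with 12 of 14 and 10 of 14 reads in mock and 7 of 14 and 5 of 15 in SNP (-36.9 points, Fisher's exact test p = 0.00665, adjusted p = 0.895). Its facing cytosine stood at 53.8%, 45.5%, 50% and 62.5%. This pair of neighbouring dyads held 3 of the 7 shared sites of the 5 genes with a mean level under 60%.

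The exon 4 dyad of SIZ1 at 24295830 was lower in both SNP libraries. It was methylated in all reads of both mock libraries and at 73.3% in SNP 1 and 73.1% in SNP 2, a difference of -26.8 points with a pooled SD of 0.13 points. The SNP levels rest on 11 of 15 and 19 of 26 reads, so this small SD does not measure the precision of the difference. On the plus strand the reads were 17 of 17 and 12 of 12 in mock and 6 of 8 and 15 of 20 in SNP (Fisher's exact test p = 0.00448, adjusted p = 0.822), and on the minus strand 12 of 12 and 6 of 6 against 5 of 7 and 4 of 6. In exon 12, the plus-strand cytosine at 24297961 went from 11 of 11 and 10 of 10 reads to 6 of 10 and 7 of 8, a difference of -26.2 points. These sites and the pair at the exon 14 boundary were the 5 most different of the non-overlapping SIZ1 sites, and all 5 were lower in SNP.

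In BRCA1, 4 of the 5 most different sites were lower in SNP and 1 was higher. In exon 14, the cytosine at 11252436 (plus strand) had 10 of 10 and 11 of 12 methylated reads in mock and 6 of 10 and 5 of 6 in SNP, and in exon 7 that at 11250834 had 12 of 13 and 14 of 15 against 10 of 13 and 8 of 11. In exon 5, the cytosine at 11249435 went the other way, from 5 of 10 and 7 of 9 reads to 8 of 10 and 6 of 6 (26.1 points). The other pair was in the AT4G21065 group, at 11247442 on the plus strand (-28.5 points) and at 11247056 on the minus strand (-25.0 points). Fisher's exact test gave each of these 5 an adjusted p of 1.

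BARD1 and HPY2 had few non-overlapping sites, all lower in SNP. In BARD1 these were 1038653 (minus strand) in exon 8, with 8 of 9, 5 of 6, 9 of 11 and 6 of 10 methylated reads in mock 1, mock 2, SNP 1 and SNP 2, and 3 sites in exon 9 at 1038823, 1038847 and 1038867 with differences of -14.1, -8.48 and -11.3 points. In HPY2 they were the facing pair at 5103247 and 5103248 and the cytosine at 5103237. At 5103248 (minus strand, the strand of the gene) the reads were 16 of 16 and 10 of 10 in mock and 10 of 11 and 3 of 5 in SNP, a difference of -24.5 points (Fisher's exact test p = 0.0488, adjusted p = 1). At 5103247 they were 12 of 13 and 9 of 9 in mock and 7 of 8 and 8 of 11 in SNP. The HPY2 differences thus rested on between 5 and 11 reads per SNP library.

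In MEE22 the most different sites went both ways. In exon 8, the cytosine at 14673378 (plus strand) had 15 of 16 and 15 of 15 methylated reads in mock and 9 of 12 and 5 of 8 in SNP (-28.1 points, Fisher's exact test p = 0.0110, adjusted p = 0.972). In exon 3, the cytosine at 14670022 (minus strand) went from 8 of 12 and 7 of 8 reads to 11 of 11 and 13 of 13, a difference of 22.9 points (Fisher's exact test p = 0.0143, adjusted p = 1), and that at 14669987 went from 9 of 11 and 10 of 12 to 6 of 6 and 11 of 11. The cytosine at 14670639 in exon 4 differed by -17.9 points and that at 14667571, inside FAH1, by -23.8 points.

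Dyads, which join the reads of both strands, gave the same order of the genes by their share of lower positions. Of 129 dyads with a shared site, 122 had both strands listed in all 4 libraries. The SNP pair lay under the mock pair in 4 of 9 such dyads in BARD1, 8 of 17 in BRCA1, 2 of 5 in HPY2, 10 of 51 in SIZ1 and 6 of 40 in MEE22. It lay above in 0, 2, 0, 10 and 9 dyads. Together these were 30 lower and 21 higher of 122 dyads, while of 694524 such dyads in the genome 17.3% were lower and 12.5% higher. In BARD1 the largest difference was in exon 7 at 1038336, with 95.2% and 82.6% in mock and 65.4% and 66.7% in SNP. SIZ1 had as many higher as lower dyads. The largest difference among the higher ones was 12.1 points and that among the lower ones -26.8 points, as the plot of dyads shows. The median level of its dyads was 92.3%, which leaves less room for a rise than for a fall, so these 2 sizes cannot be compared directly.

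**Figure D5:**
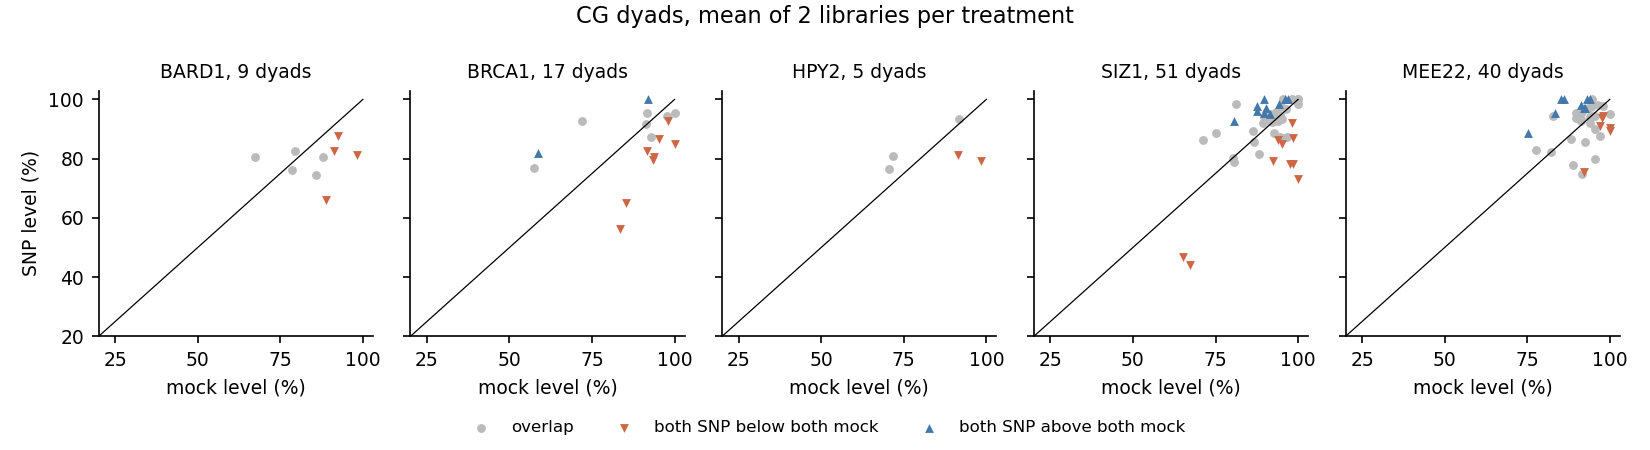
Methylation level of each CG dyad in percent, mean of the SNP libraries (vertical axis) against mean of the mock libraries (horizontal axis), with the line of equal levels; 122 dyads with both strands listed in all 4 libraries. Marker shape shows whether the SNP pair lay under the mock pair, above it, or overlapped with it. Lower dyads are 4 of 9 in BARD1 and 6 of 40 in MEE22.

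The pathways around these genes were described through 3 gene lists. Of 9 genes of the SMC5/6 complex besides HPY2, 7 had enough sites, and 2 passed the region test in edgeR, both lower in SNP. NSE1, a ring-finger subunit, stood at 93.3% and 93.4% in mock and at 83.0% and 82.6% in SNP (-10.5 points, edgeR adjusted p = 0.0184). SMC6A, an ATPase subunit of the complex, stood at 92.1% and 90.1% in mock and at 81.0% and 86.9% in SNP (-7.19 points, edgeR adjusted p = 0.0375). SMC5 stood at 90.3%, 93.0%, 88.1% and 89.4% (adjusted p = 0.261 in edgeR). Each call was lost without mock 1 or without SNP 1, where the differences had the same sign and the edgeR adjusted p was 0.0566 and 0.0669 for NSE1 and 0.131 and 0.376 for SMC6A. NSE1 was also lost without SNP 2, with an edgeR adjusted p of 0.0514. The log2 odds ratio of NSE1 was -1.54, -1.55 and -1.51 without mock 1, SNP 1 and SNP 2, against -1.53 with all libraries, so its size did not move with these losses.

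Of 16 genes of the SUMO pathway besides SIZ1 and HPY2, 12 were tested and 1 passed. ELS1 (ULP1A), a SUMO protease, stood at 93.5% and 90.3% in mock and at 77.8% and 83.9% in SNP (-11.1 points, edgeR adjusted p = 0.0209), and lost the call without mock 1 (adjusted p = 0.142) or without SNP 1 (adjusted p = 0.195). PIAL2, a SUMO ligase, differed by -5.22 points (edgeR adjusted p = 0.0808) and OTS1, a SUMO protease, by -3.46 points (adjusted p = 0.282). Of 23 genes of recombination and damage signalling around BRCA1 and BARD1, 20 were tested and none passed in edgeR, and 8 had an unadjusted p under 0.05, which 20.3% of all regions had. The smallest p were those of RAD50, a subunit of the break-binding MRN complex (-3.75 points, edgeR adjusted p = 0.0891), and of BRCA2B (-11.7 points, adjusted p = 0.110) and BRCA2A (-4.17 points, adjusted p = 0.163). The median differences of the 3 lists, -2.86 points for SMC5/6, -2.99 for SUMO and -2.40 for recombination, lay beside the -2.43 points of all regions, and the share of called regions over all genes was 3.25%.

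The gene regions most like each member in their 4 CG levels were found by the Euclidean distance in percentage points over 13343 regions. The nearest to BRCA1 were AT5G41120 and AT3G22980, at 1.18 and 1.22 points, and 559 regions lay within 5 points of it. The nearest to SIZ1 were CER9 and emb1027, at 0.53 and 0.54 points, with 2801 regions within 5 points, and the nearest to MEE22 were AT1G55175 and EMB2820, at 0.78 and 0.85 points, with 1467. HPY2 was nearest to AT5G28180 and AT4G23860, at 2.04 and 2.07 points, with 164 regions within 5 points. BARD1 had the fewest like regions of the 5, since 15 lay within 5 points of it, the nearest being AT5G61880 and FBS4 at 2.17 and 3.47 points. The levels of BARD1 rested on 13 sites with 119 to 183 reads per library, those of SIZ1 on 94 sites with 1056 to 1197. The part of read number in these counts was not tested.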

How the data were processed

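Whole shoot apices were profiled by EM-seq in 4 libraries, 2 mock and 2 SNP. The submitters' processing notes name FastQC, Bismark and TAIR10, with no versions. The study's methods give a minimum of 10 reads and sites supported by both biological replicates, whereas the files also list sites of lower depth and of 1 library, none with fewer than 2 methylated reads. The deposited files give per cytosine its strand, context, methylation level as a fraction, and depth as a read count. The fraction values of the authors times the count gave whole methylated reads in 100% of lines. All 6303651 nuclear positions matched a cytosine of the listed strand in TAIR10.1 (RefSeq), which gave the gene models and sequences.

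Methylated and unmethylated reads of CG sites that each library read at least 5 times were summed per gene region (gene plus 1 kb upstream, at least 10 sites, level of at least 1%) and tested in edgeR 4.0.16 (R 4.3.3) by the quasi-likelihood test with a term per library. A minimum of 5 reads was used because 10 left 1 to 24 sites per gene. Sites were tested by Fisher's exact test (scipy 1.17.1) on reads pooled by treatment, and levels and site counts by exact two-sided permutation. P-values were adjusted by the Benjamini-Hochberg method over all regions or sites, at 0.05. The edgeR and Fisher's exact tests were also run on simulated data with known changes. Those changes were larger than the differences of the 5 gene regions and of the sites named here. The runs therefore do not show whether the tests find changes as small as these.

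The 5 genes, the pathway lists and the tests were chosen with earlier results of these data known. Named sites were, per gene, up to 5 with the largest mean difference among those with at least 5 reads and no overlap of treatments. Named list genes were the 3 with the smallest region p. Alternatives changed the depth limits, the sites counted, the test, the replicate block and the libraries. Sites with fewer than 2 methylated reads were not analysed here.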

Additional observations from a re-analysis of the deposited data

How the results depend on the processing

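No alternative brought a CG site of the 5 genes past the threshold, and of the alternatives to the CG region test only the pooled Fisher's exact test called one of the 5 regions, that of BRCA1. Of the settings tried for the main results, 71 stayed within the spread between libraries of a treatment (for counts of calls, within 1.5 times), 26 moved further and 11 reversed. The gene regions called in CG numbered 433, with 0 of 1926 at 10 reads, 4013 in the pooled Fisher test and 157 to 564 with 1 library left out. Over all contexts 355 became 1, 621 with all sites listed in every library, 4118 in the pooled Fisher test and 52 to 470 with 1 library left out. For gene bodies 625 became 0 of 1541, 3461 and 146 to 518. Called CG sites numbered 116 to 483 with 1 library left out. The correlation of the deviations of mock 1 and SNP 1 was 0.006 over 13343 regions. Read sampling also enters these deviations, so this value cannot settle whether replicate numbers pair the libraries. With a replicate block the calls numbered 687 in CG, 600 over all contexts and 572 for bodies.

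The CG difference of BRCA1 was -0.0396 points at 10 reads, -4.21 with all sites listed in every library and 0.22 with the sites of each library, that of HPY2 -14.6 (1 site) and 0.74, that of SIZ1 -3.54 and -3.24 at 10 reads and with the sites of each library, and that of MEE22 5.24 at 10 reads. With 1 library left out, the differences ran from -13.4 to 1.28 points in BARD1, -7.06 to -4.80 in BRCA1, -6.13 to 2.46 in HPY2, -1.71 to -1.08 in SIZ1 and -0.50 to 2.41 in MEE22, and the log2 odds ratios from -1.12 to 0.19 in BARD1, -0.57 to 0.31 in HPY2 and -0.11 to 0.47 in MEE22. The differences in listed sites ran from -15 to 4 in BARD1, -16 to -13 in BRCA1, -15.5 to 4.5 in HPY2, -11.5 to 20.5 in SIZ1 and -14.5 to 9.5 in MEE22, and with at least 5 reads that of BRCA1 was -18 sites. The cause was not tested for any of these. Depth limits single sites: 43 of the 251 shared CG sites had 10 reads in every library.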

Other observations

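At some CG cytosines of these genes 1 library stood far from the other 3. In BARD1, the minus-strand cytosine at 1038870 in exon 9 was at 27.3%, 25.0%, 75.0% and 27.3% in mock 1, mock 2, SNP 1 and SNP 2, where the SNP 1 value rests on 3 of 4 reads. In BRCA1, the plus-strand cytosine at 11251707 in exon 11 was at 30.0%, 44.4%, 92.9% (13 of 14 reads) and 42.9%, and the minus-strand cytosine at 11252437 in exon 14 at 84.6%, 64.7%, 23.1% (3 of 13 reads) and 66.7%. SNP 1 stood apart at these 3 sites, and SNP 2 did not follow it. At other sites mock 1 stood apart. In SIZ1, the plus-strand cytosine at 24300532 in exon 17 had 3 of 12 methylated reads in mock 1. It had 13 of 14 in mock 2, 8 of 10 in SNP 1 and 6 of 7 in SNP 2. In HPY2, the minus-strand cytosine at 5103258 had 5 of 15 in mock 1. It had 8 of 10 in mock 2, 9 of 12 in SNP 1 and 5 of 5 in SNP 2. These sites were chosen after their values were seen, so they cannot show whether 1 library stood apart more often than the others.

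Of the 251 shared CG sites, 19 were methylated in every read of all 4 libraries, 11 of them in SIZ1, 6 in MEE22 and 2 in BRCA1, and none in BARD1 or HPY2.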
